A study of Mus musculus with 8 samples.

Results

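Cytokines of the interleukin 6, 10 and 12 families were followed in mouse bone marrow-derived macrophages that lacked or retained PTIP, a subunit of a histone methyltransferase complex and the product of Paxip1. The genes were taken by name, by family: the subunit genes of IL-12, IL-23 and IL-27 (Il12a, Il12b, Il23a, Il27 and Ebi3), the IL-6 family genes Il6, Osm and Lif, and Il10. All 9 were found among the 55226 genes of the authors' table, and 7 of them passed a filter on low values, a mean of at least 3 over the 8 samples on the authors' regularised log scale (rlog, in log2 units). Il23a and Lif lay below it. The study measured poly(A) RNA in 4 groups of 2 samples: PtipcKO macrophages 6 h after LPS, a component of the bacterial outer membrane, PtipcKO macrophages at 0 h, PtipWT macrophages 6 h after LPS and PtipWT macrophages at 0 h. In all groups the mice were C57BL/6, and marrow cells were grown for 7 days in 10 ng/ml M-CSF and 10% serum. LPS was given at 100 ng/ml. cKO stands for a conditional knockout. The labels used here name neither the Cre driver nor the deleted exons. The series text calls the samples biological replicates, but no label ties a replicate number to a mouse. The p-values below thus weigh differences against the spread of these samples, which may be technical in part.

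IL-12, IL-23 and IL-27 are heterodimers that share chains. The p40 chain of Il12b pairs with p35 of Il12a to make IL-12 and with p19 of Il23a to make IL-23, while Il27 encodes p28, the partner of the Ebi3 chain in IL-27. IL-6, oncostatin M (Osm) and leukaemia inhibitory factor (Lif) signal through receptors that contain the gp130 chain and activate STAT3, and IL-10, which also acts through STAT3, restrains the output of inflammatory cytokines by macrophages. LPS-activated macrophages are a classical source of IL-12, IL-6 and IL-10.

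The sequences upstream of 4 cytokine genes are shown because 3 of them, Il6, Il12a and Il12b, had the largest genotype differences after LPS and Ebi3 had the smallest, and because both the LPS response and the genotype comparison concern transcript levels. Each is the 250 bases before a RefSeq start site on GRCm38.p6, plus strand, 5′ to 3′. RefSeq gives Il12a a start site at the gene's annotated beginning, chr3:68690644, and another within the gene, at chr3:68691424. Capitals mark matches to a searched motif.
Il6, chr5:30012864-30013113: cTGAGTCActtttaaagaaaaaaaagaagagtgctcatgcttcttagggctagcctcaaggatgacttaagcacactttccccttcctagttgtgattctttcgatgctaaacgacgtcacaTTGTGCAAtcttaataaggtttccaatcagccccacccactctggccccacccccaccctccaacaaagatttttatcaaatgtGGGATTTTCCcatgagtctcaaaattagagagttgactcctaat
Il12a, chr3:68690394-68690643: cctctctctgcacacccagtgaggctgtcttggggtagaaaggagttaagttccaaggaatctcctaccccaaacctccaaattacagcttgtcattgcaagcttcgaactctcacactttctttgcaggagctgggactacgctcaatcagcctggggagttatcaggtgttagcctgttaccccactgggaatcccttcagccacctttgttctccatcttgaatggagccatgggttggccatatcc
Il12a, chr3:68691174-68691423: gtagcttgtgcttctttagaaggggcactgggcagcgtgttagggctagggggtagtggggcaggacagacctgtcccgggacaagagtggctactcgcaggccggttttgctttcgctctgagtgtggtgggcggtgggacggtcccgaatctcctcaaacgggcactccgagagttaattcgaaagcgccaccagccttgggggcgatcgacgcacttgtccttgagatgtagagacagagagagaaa
Il12b, chr11:44399813-44400062: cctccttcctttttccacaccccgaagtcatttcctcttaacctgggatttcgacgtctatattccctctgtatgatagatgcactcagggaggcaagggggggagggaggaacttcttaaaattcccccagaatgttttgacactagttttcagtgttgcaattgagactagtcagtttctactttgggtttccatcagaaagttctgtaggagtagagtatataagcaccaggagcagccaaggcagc
Ebi3, chr17:55952373-55952622: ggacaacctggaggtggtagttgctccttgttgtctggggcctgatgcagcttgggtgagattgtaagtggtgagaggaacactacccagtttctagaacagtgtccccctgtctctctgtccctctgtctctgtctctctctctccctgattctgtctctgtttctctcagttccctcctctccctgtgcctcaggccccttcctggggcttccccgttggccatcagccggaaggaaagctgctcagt
The promoter table held windows for 5 of the 9 genes, these 4 and Lif. Il10, Il23a, Il27 and Osm had none there. The 6 motifs searched on both strands were a kB site (GGGA and TTCC with 2 free bases between, in 1.21% of the 32851 mouse windows of this length), a C/EBP site (TTGC and AA with 2 free bases between, 9.56%), an AP-1 site (TGANTCA, 6.75%), a CRE (TGACGTCA, 1.55%), an ISRE (GAAA and GAAA with 2 free bases between, 2.98%) and a TATA box (TATAAA, 12.4%). The Il6 window held a kB match 44 to 35 bases before the start site, a C/EBP match on the minus strand 128 to 121 bases before it and an AP-1 match 249 to 243 bases before it. The Lif window held an AP-1 match 228 to 222 bases before its start site. None of the 6 letter strings occurred in the Il12a, Il12b or Ebi3 windows shown. A match is a match of letters and not a measured binding site.

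The 4 libraries labelled cKO were all low in Paxip1, which had an rlog of 2.54 and 2.63 in cKO after LPS and 2.54 and 2.48 in cKO at 0 h, against 3.82 and 4.08 in WT after LPS and 4.50 and 4.50 in WT at 0 h. They lay below the 4 WT libraries, and cKO minus WT was -1.36 after LPS (SE 0.18, limma adjusted p = 0.0156) and -1.99 at 0 h (SE 0.18, limma adjusted p = 0.00686). After LPS the call was lost without cKO LPS replicate 1 (difference -1.32), cKO LPS replicate 2 (-1.41) or WT LPS replicate 1 (-1.5). Nearly all calls of any gene were lost in those fits, so these losses are not particular to Paxip1. At 0 h the call was lost without cKO 0 h replicate 2 (-1.96) or WT 0 h replicate 1 (-1.99). A fit of the compared groups alone also lost it at 0 h (limma adjusted p = 0.0544). The authors' deposited table, whose fold changes are not those of the rlog scale, gave Paxip1 -4.75 at 0 h (adjusted p = 0.00196). The same authors' deposited table gave -4.04 after LPS (unadjusted p = 0.004), which did not pass an adjusted p of 0.05. The depth of the libraries is unknown, since the authors' values are transformed. Between the samples of a group r was 0.987 to 0.992, taken across genes, which are not independent replicates. All 8 macrophage marker genes passed the filter, whereas no T or NK cell marker (of 6) did. Of 4 mast cell markers 2 passed, Kit and Cpa3, while Mcpt4 was listed at 0 in every sample. Of 5 B cell markers 1 passed, Cd79b, and of 5 stromal cell markers 1, Pdgfrb. The samples are bulk RNA, so fewer cells of a type and less RNA per cell cannot be told apart.

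LPS raised Il12a, Il12b, Il27 and Il6 by large factors in both genotypes, raised Ebi3 by a small one, and raised Il10 past the threshold in WT. Of the 7 tested cytokine genes, 5 rose in cKO (19.6% of the 11543 tested genes did) and 6 rose in WT (22.5%), and 0 fell in either (17.5% and 19.7% of tested genes did). The median change of the 7 was 4.44 in cKO and 4.69 in WT, beside medians of -0.02 and -0.01 over all tested genes. Adjusted p-values here and below are Benjamini-Hochberg values over all tested genes from limma, with a threshold of 0.05.

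The subunits of IL-12 were among the most responsive. Il12b (chr11:44400063-44414033, plus strand) had an rlog of 13.57 and 14.45 in cKO after LPS and 7.23 and 8.38 in cKO at 0 h, against 15.33 and 16.19 in WT after LPS and 9.77 and 9.05 in WT at 0 h. Every LPS library lay above every 0 h library, and each cKO library lay below both WT libraries of its time. The LPS change was 6.20 in cKO (SE 0.46, limma adjusted p = 4.61e-05), or 73.6-fold on this scale, and 6.35 in WT (SE 0.46, limma adjusted p = 2.68e-05). Il12a (chr3:68690644-68698547, plus strand), the p35 gene, had 10.45 and 10.57 in cKO after LPS and 5.62 and 6.52 in cKO at 0 h, against 11.73 and 12.26 in WT after LPS and 7.65 and 6.96 in WT at 0 h. It showed the same order of groups as Il12b. Its LPS change was 4.44 in cKO (SE 0.33, limma adjusted p = 4.32e-05) and 4.69 in WT (SE 0.33, limma adjusted p = 2.34e-05). Il23a (chr10:128296139-128298752, minus strand), the p19 gene, stayed low, with 2.17 and 2.08 in cKO after LPS and 1.35 and 1.50 in cKO at 0 h, against 2.77 and 3.09 in WT after LPS and 1.71 and 1.44 in WT at 0 h. The LPS libraries still lay above the 0 h libraries in each genotype. In a fit with no filter its LPS change was 0.70 in cKO (SE 0.18, limma adjusted p = 0.0688) and 1.36 in WT (SE 0.18, limma adjusted p = 0.00631). The rlog scale pulls such low genes together: the authors' deposited table gave log2 fold changes of 4.0 in cKO (adjusted p = 0.164) and 3.81 in WT (adjusted p = 0.00574).

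The partners in IL-27 responded unequally. Il27 (chr7:126589010-126594941, minus strand) had an rlog of 12.77 and 12.69 in cKO after LPS and 5.81 and 6.22 in cKO at 0 h, against 13.70 and 13.89 in WT after LPS and 7.98 and 6.19 in WT at 0 h. The 2 WT libraries at 0 h lay 1 on each side of the higher cKO library at that time. The LPS change of Il27 was 6.72 in cKO (SE 0.46, limma adjusted p = 3.09e-05) and 6.71 in WT (SE 0.46, limma adjusted p = 2.3e-05), 105-fold in both. Ebi3 (chr17:55952640-55957022, plus strand) was already high, with 10.56 and 10.88 in cKO after LPS and 9.46 and 9.88 in cKO at 0 h, against 10.94 and 10.46 in WT after LPS and 10.19 and 9.57 in WT at 0 h. LPS libraries lay above 0 h libraries within each genotype, and the genotypes overlapped at both times. The change was 1.05 in cKO (SE 0.25, limma adjusted p = 0.0122) and 0.82 in WT (SE 0.25, limma adjusted p = 0.0301). In cKO the Ebi3 call was lost without cKO LPS replicate 2 (0.89, limma adjusted p = 0.0902) or cKO 0 h replicate 1 (0.84, limma adjusted p = 0.0744), and with no filter (limma adjusted p = 0.0793). In WT it was lost without WT LPS replicate 1 (0.58, limma adjusted p = 0.156) or WT 0 h replicate 2 (0.51, limma adjusted p = 0.182), under quantile normalization (0.39, limma adjusted p = 0.236) and with no filter (limma adjusted p = 0.137). Over the 16 alternatives the Ebi3 adjusted p ran from 0.0058 to 0.0902 in cKO and from 0.0161 to 0.236 in WT.

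Both IL-27 genes overlap another gene on the opposite strand, judged by whole gene spans. Strand use in counting is not given in the sources used here, so reads from any shared exon stretch cannot be told apart. The length of such stretches was not measured. Apobr, which overlaps Il27, had an rlog of 6.97 and 6.97 in cKO after LPS and 7.58 and 7.67 in cKO at 0 h, against 7.33 and 6.68 in WT after LPS and 7.84 and 7.57 in WT at 0 h. It was thus lower after LPS, the opposite of Il27. Gm16712, the antisense gene at Ebi3, had 4.36 and 4.90 in cKO after LPS and 3.38 and 3.48 in cKO at 0 h, against 4.87 and 4.65 in WT after LPS and 3.89 and 3.58 in WT at 0 h. It was higher after LPS in both genotypes, as Ebi3 was.

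The IL-6 family genes behaved differently from each other. Il6 (chr5:30013114-30019981, plus strand) had an rlog of 9.61 and 9.71 in cKO after LPS and 4.67 and 5.06 in cKO at 0 h, against 11.08 and 11.55 in WT after LPS and 6.11 and 5.0 in WT at 0 h. After LPS both cKO libraries lay below both WT libraries, while at 0 h the genotypes overlapped. The LPS change was 4.80 in cKO (SE 0.33, limma adjusted p = 3.09e-05) and 5.76 in WT (SE 0.33, limma adjusted p = 1.27e-05), or 27.8-fold and 54.1-fold. Osm (chr11:4236420-4241026, plus strand), a cytokine that is already expressed at rest, had 8.21 and 8.23 in cKO after LPS and 8.66 and 8.71 in cKO at 0 h, against 9.46 and 8.79 in WT after LPS and 9.31 and 9.07 in WT at 0 h. The cKO libraries were lower after LPS than before it, and the WT libraries overlapped between times. The change was -0.46 in cKO (SE 0.21, limma adjusted p = 0.114) and -0.06 in WT (SE 0.21, limma adjusted p = 0.826). Without WT LPS replicate 1 the cKO change of Osm, -0.46, passed (limma adjusted p = 0.025), as it did without WT LPS replicate 2 (0.0244), in the cKO groups alone (0.0231) and under quantile normalization (-0.59, 0.0403), over a range of 0.0231 to 0.302. Lif (chr11:4257557-4272514, plus strand) was the lowest of the 9, with 1.30 and 1.22 in cKO after LPS and 1.14 and 1.04 in cKO at 0 h, against 1.64 and 1.93 in WT after LPS and 1.03 and 1.20 in WT at 0 h. In the fit with no filter its LPS change was 0.17 in cKO (SE 0.15, limma adjusted p = 0.5) and 0.67 in WT (SE 0.15, limma adjusted p = 0.035). The authors' deposited table gave Lif log2 fold changes of 2.03 in cKO and 3.49 in WT (adjusted p = 0.151 in WT), and called neither.

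Il10 (chr1:131019845-131024974, plus strand) gave a modest response. Its rlog was 6.60 and 6.13 in cKO after LPS and 5.59 and 5.98 in cKO at 0 h, against 7.93 and 6.75 in WT after LPS and 6.19 and 5.27 in WT at 0 h. The WT replicates lay 1.18 apart after LPS and 0.92 apart at 0 h, and WT LPS replicate 1 was the highest of the 8. The LPS change was 0.58 in cKO (SE 0.42, limma adjusted p = 0.319) and 1.61 in WT (SE 0.42, limma adjusted p = 0.0149). The WT call was lost without WT LPS replicate 1 (1.02, limma adjusted p = 0.0838) or WT 0 h replicate 2 (1.15, limma adjusted p = 0.0994), and with no filter (0.0888), over a range of 0.00444 to 0.0994. The authors' deposited table gave Il10 a log2 fold change of 0.74 in cKO (adjusted p = 0.236) and 1.99 in WT (adjusted p = 0.00072).

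**Figure D1:**
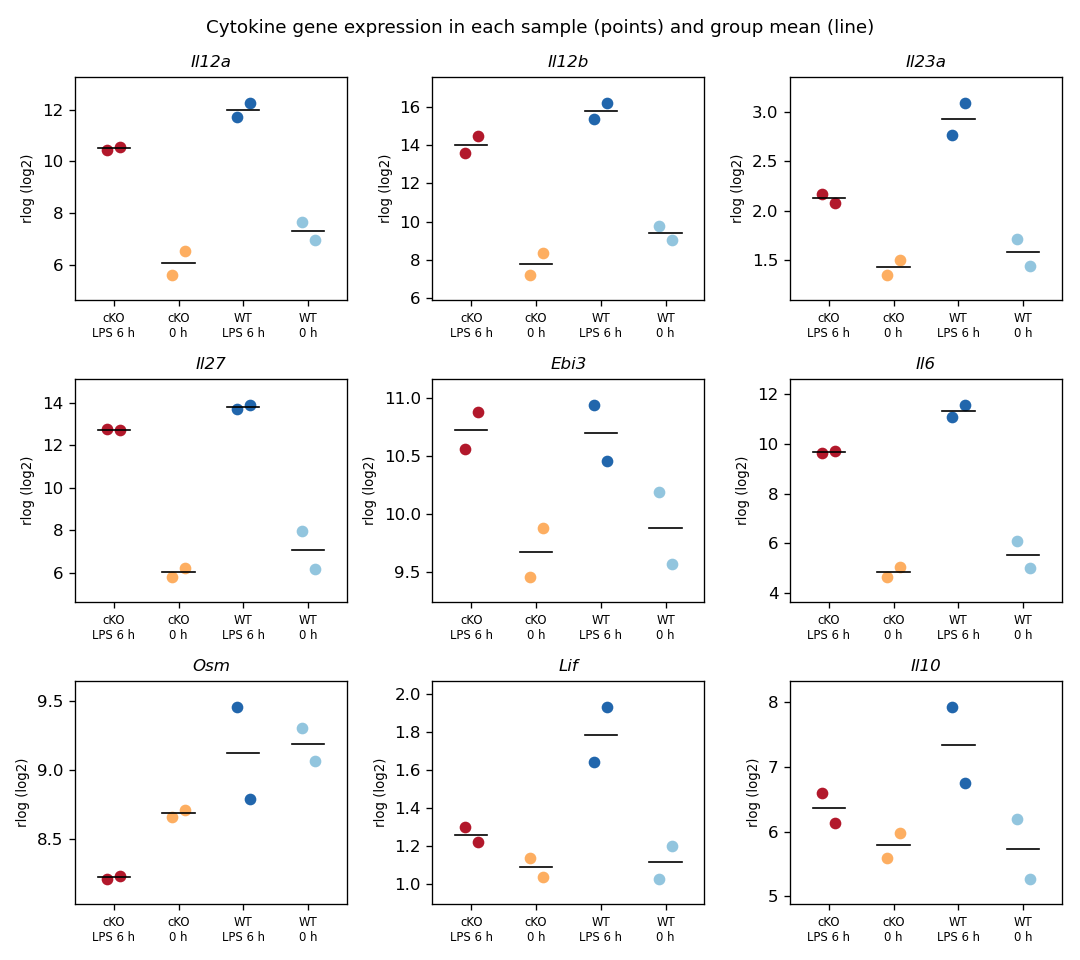
Expression of the 9 cytokine genes in each sample, on the rlog (log2) scale of the authors' table; each panel has its own axis, points are samples and lines are the means of the 2 samples of a group. Il12a, Il12b, Il27 and Il6 are far higher after LPS in both genotypes, and after LPS the cKO points of these 4 genes lie below the WT points, with Il6 at 9.61 and 9.71 in cKO and 11.08 and 11.55 in WT.

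**Figure D2:**
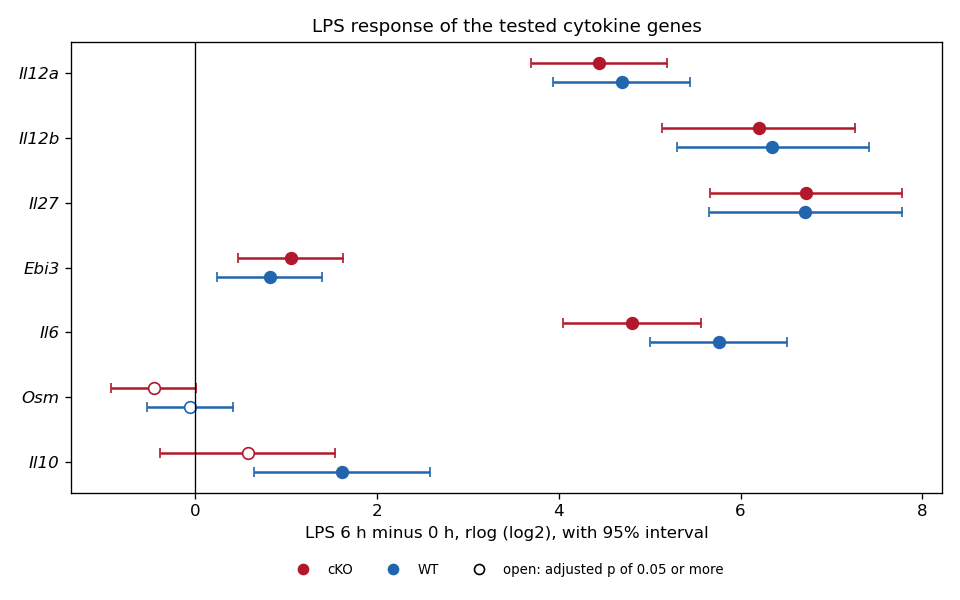
LPS change of the 7 tested cytokine genes in cKO and in WT, as 6 h minus 0 h on the rlog (log2) scale; bars are 95% intervals from limma and open points did not pass an adjusted p of 0.05. The intervals of cKO and WT overlap for each of the 7 genes, and Il27 has changes of 6.72 in cKO and 6.71 in WT.

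After LPS Il6 and Il12a were lower in cKO than in WT, 2 of the 7 tested genes, where 2.46% of tested genes were called lower. The other 5 did not pass the threshold. At an unadjusted limma p under 0.05 there were 6 of the 7, all lower in cKO (21.5% of tested genes in either direction). Of the 7 genes 6 had both cKO libraries below both WT libraries after LPS (29.7% of tested genes did), and the median difference was -1.06, beside -0.03 over all tested genes. By size Il12b, Il6 and Il12a ranked 19, 27 and 57 from the lowest of 11543 genes.

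Il6, the pyrogenic and acute-phase cytokine, was 3.14-fold lower in cKO after LPS (-1.65, SE 0.33, limma adjusted p = 0.0353). Il12a was 2.80-fold lower (-1.49, SE 0.33, limma adjusted p = 0.0459). Il12b had a difference of -1.75 with a wider error (SE 0.46, limma adjusted p = 0.0739). The LPS replicates of Il6 and Il12a were at most 0.53 apart on the rlog scale, while those of Il12b differed by 0.88 in cKO and 0.86 in WT. Osm had a difference of -0.90 (SE 0.21, limma adjusted p = 0.0507), Il27 of -1.06 (SE 0.46, limma adjusted p = 0.231) and Il10 of -0.98 (SE 0.42, limma adjusted p = 0.226). Ebi3 differed by 0.02 (SE 0.25, limma adjusted p = 0.975), with an interval from -0.56 to 0.60 that admits a difference of either sign. Below the filter, Il23a had a difference of -0.81 (SE 0.18, limma adjusted p = 0.154) and Lif of -0.53 (SE 0.15, limma adjusted p = 0.227) in the fit with no filter. For both genes the 2 cKO libraries lay below the 2 WT libraries, but how often genes under the filter do so was not counted. The authors' deposited table gave -1.63 for Il23a and -2.2 for Lif, and called neither.

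The call of Il6 held under 9 of 16 alternatives and that of Il12a under 8, and both were lost when any LPS library was left out. Such a fit leaves 1 library in a group. Without either cKO LPS library or WT LPS replicate 1 nearly all calls of any gene were lost. Those losses are thus not particular to Il6 or Il12a. The Il6 difference was -1.6 without cKO LPS replicate 1 and -1.7 without cKO LPS replicate 2. It was -1.88 without WT LPS replicate 1 and -1.42 without WT LPS replicate 2. For Il12a the difference was -1.43, -1.54, -1.75 and -1.22 in the same order. Both calls were also lost with no filter (limma adjusted p = 0.156 for Il6 and 0.19 for Il12a), under quantile normalization (0.0826 and 0.106) and with no variance trend (0.0521 and 0.066). The Il12a call was lost with a robust variance model too (0.0628). The differences themselves lay between -1.88 and -1.37 for Il6 and between -1.75 and -1.22 for Il12a over 16 alternatives, with adjusted p from 0.00887 to 0.21 and from 0.0151 to 0.233. The size of 2 other differences depended on which WT LPS replicate was left out. Osm stood at -0.57 without WT LPS replicate 1 (limma adjusted p = 0.144) and passed at -1.24 without WT LPS replicate 2 (limma adjusted p = 0.0287, range 0.0287 to 0.246). Il10 stood at -0.39 without WT LPS replicate 1 (limma adjusted p = 0.662) and at -1.57 without WT LPS replicate 2 (limma adjusted p = 0.081). A 0 h library enters this comparison through the shared estimate of the spread: without cKO 0 h replicate 1 or 2 Il12b passed (limma adjusted p = 0.0453 and 0.0449, range 0.0395 to 0.302), and without WT 0 h replicate 1 or 2 Il27 passed (0.0221 and 0.0222, range 0.0162 to 0.58). The authors' deposited table, whose fold changes are not those of the rlog scale, called 4 of the 9 genes lower after LPS, where 1.61% of its genes were: Il6 (-1.75, adjusted p = 1.96e-10), Il12a (-1.59, adjusted p = 2.56e-08), Il27 (-1.09, adjusted p = 1.2e-05) and Osm (-1.0, adjusted p = 0.0163). In the same authors' deposited table Il12b had -1.83 (adjusted p = 0.0694) and Il10 -1.24 (adjusted p = 0.0677).

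At both times the sums of macrophage and of neutrophil markers lay apart between genotypes, while those of dendritic cell markers overlapped or touched. The 8 macrophage markers, summed on the linear scale and expressed in log2 units, stood at 18.56 to 18.60 in cKO after LPS and 18.42 to 18.73 in cKO at 0 h, against 19.48 to 19.53 in WT after LPS and 19.24 to 19.32 in WT at 0 h, and 2 of the 8, Itgam and Mertk, were called lower in cKO after LPS (2.46% of tested genes were). None of the 8 was called between genotypes at 0 h. Lyz2, the lysozyme gene, made up 75.5% to 87.3% of that sum, with an rlog of 18.16 and 18.20 in cKO after LPS and 19.19 and 19.31 in WT after LPS. Lyz2 was not called between genotypes after LPS (-1.07, limma adjusted p = 0.0899) or at 0 h (-0.76, limma adjusted p = 0.433). Csf1r, the M-CSF receptor gene, overlapped between genotypes after LPS (12.87 and 12.94 in cKO, 13.13 and 12.77 in WT), as did Cd68 (14.70 and 14.80 in cKO, 14.42 and 14.73 in WT). The 6 neutrophil markers, of which S100a8 alone passed the filter, summed to 8.27 to 8.39 in cKO after LPS and 7.81 to 7.89 in cKO at 0 h, against 7.30 to 7.69 in WT after LPS and 6.60 to 7.14 in WT at 0 h. S100a8 made up 93.3% to 97.7% of that sum. It was not called between genotypes after LPS (0.88, limma adjusted p = 0.0541) or at 0 h (1.03, limma adjusted p = 0.129). S100a9 overlapped between genotypes after LPS (1.04 and 1.57 in cKO, 1.07 and 2.56 in WT). The 6 dendritic cell markers, of which Flt3 and Dpp4 were below the filter, summed to 10.13 to 10.21 in cKO after LPS and 8.72 to 8.94 in cKO at 0 h, against 10.21 to 11.19 in WT after LPS and 8.75 to 9.27 in WT at 0 h, and 3 of the 4 tested rose with LPS in each genotype. Ccr7, a chemokine receptor gene, made up 90.2% to 97.0% of that sum, and the other 5 markers had an rlog under 5 in every sample. The part of these markers in the cytokine differences was not tested.

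At 0 h no cytokine gene passed the threshold between genotypes. limma called 0 of the 7 (0.199% of tested genes were called lower), and 4 had an unadjusted p under 0.05, all lower in cKO (6.02% of tested genes). In Il12a, Il12b and Osm, 3 of 7, both cKO libraries lay below both WT libraries (21.9% of tested genes). The median difference was -0.69, beside -0.01 over all tested genes. Il12b had a difference of -1.60 (SE 0.46, limma adjusted p = 0.264), Il12a of -1.24 (SE 0.33, limma adjusted p = 0.235) and Il27 of -1.07 (SE 0.46, limma adjusted p = 0.455). Leaving out 1 library moved the Il12b difference between -2.18 and -1.03 and the Il12a difference between -1.69 and -0.78, with the smallest of each without cKO 0 h replicate 1. Il6 had a difference of -0.69 (SE 0.33, limma adjusted p = 0.504) and Osm of -0.51 (SE 0.21, limma adjusted p = 0.427). Ebi3 had -0.21 (SE 0.25, limma adjusted p = 0.835) and Il10 had 0.06 (SE 0.42, limma adjusted p = 0.979), with intervals from -0.79 to 0.37 and from -0.90 to 1.02. In 7 of 7 tested cytokine genes, a share not counted over all tested genes, the higher of the WT pair was WT 0 h replicate 1. Without it the Il6 difference was -0.14 (limma adjusted p = 0.953), and without WT 0 h replicate 2 it was -1.24 (limma adjusted p = 0.134). Without WT 0 h replicate 1 the Il27 difference was -0.18 (limma adjusted p = 0.922), and without WT 0 h replicate 2 it was -1.96 and passed (limma adjusted p = 0.0204), the ends of its range of 0.0204 to 0.922. The authors' deposited table called 1 of the 9 genes lower at 0 h, Il12b (-1.71, adjusted p = 0.00196), where 0.476% of its genes were.

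**Figure D3:**
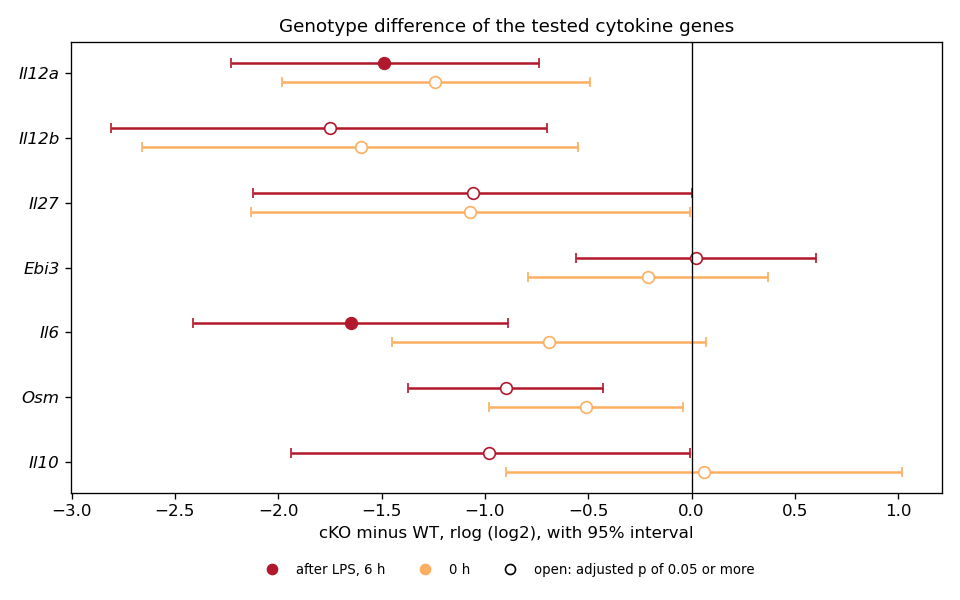
Genotype difference of the 7 tested cytokine genes, as cKO minus WT on the rlog (log2) scale, 6 h after LPS and at 0 h; bars are 95% intervals from limma and open points did not pass an adjusted p of 0.05. Only Il6 (-1.65) and Il12a (-1.49) after LPS are filled, Il12b lies left of 0 at both times (-1.75 after LPS and -1.60 at 0 h), and Ebi3 straddles 0.

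With the genotype difference averaged over both times, a comparison added after the data were seen, 4 of the 7 genes were called lower in cKO (4.14% of tested genes were) and 0 higher (2.88%). Il12b differed by -1.68 (SE 0.33, limma adjusted p = 0.0231), Il12a by -1.36 (SE 0.23, limma adjusted p = 0.015), Il6 by -1.17 (SE 0.23, limma adjusted p = 0.0253) and Osm by -0.71 (SE 0.15, limma adjusted p = 0.0274). In Il12a, Il12b and Osm both cKO libraries lay below both WT libraries at each time, as in 11.1% of tested genes. Il27 had a difference of -1.07 (SE 0.33, limma adjusted p = 0.0927), Il10 of -0.46 (SE 0.30, limma adjusted p = 0.39) and Ebi3 of -0.10 (SE 0.18, limma adjusted p = 0.797). None of the 4 was called with no filter, without cKO LPS replicate 1 or without cKO LPS replicate 2, and 2 were called without cKO 0 h replicate 1 and 2 without WT 0 h replicate 1. Osm was also lost without cKO 0 h replicate 2 (limma adjusted p = 0.0628), Il6 without WT LPS replicate 2 (0.0572) and Il12b under quantile normalization (0.0505). Over 15 alternatives the limma adjusted p ran from 0.00985 to 0.138 for Il12b, from 0.0101 to 0.1 for Il12a, from 0.00754 to 0.135 for Il6 and from 0.00845 to 0.124 for Osm. Without WT 0 h replicate 2 Il27 passed as well (-1.51, limma adjusted p = 0.00356, range 0.00356 to 0.323).

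Whether the size of the LPS response differed between genotypes was tested with the interaction, the LPS change in cKO minus that in WT. limma called 0 of the 7 cytokine genes and 0 of all tested genes (0.0%), with 0 of the 7 and 751 of all tested genes (6.51%) at an unadjusted p under 0.05. The difference was -1.04 for Il10 (SE 0.60, limma adjusted p = 0.784) and -0.96 for Il6 (SE 0.47, limma adjusted p = 0.764). It was -0.40 for Osm (SE 0.29), -0.25 for Il12a (SE 0.46), -0.15 for Il12b (SE 0.65), 0.01 for Il27 (SE 0.65) and 0.23 for Ebi3 (SE 0.36). The 95% intervals ran from -2.03 to 0.11 for Il6 and from -2.40 to 0.33 for Il10, and for Il27 from -1.49 to 1.50. Thus the Il10 call in WT and its absence in cKO do not show that the Il10 responses differed.

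Levels of different genes were compared after subtracting log2 of the exon length in kb from the rlog. In cKO after LPS the order was Il12b (13.03) and Il27 (12.70), whose samples overlapped, then Ebi3 (10.51), Il12a (9.74), Il6 (8.38), Osm (7.04), Il10 (5.98), Il23a (0.96) and Lif (-0.86), with no overlap between the other neighbours. In cKO at 0 h Ebi3 led at 9.47, followed by Osm (7.50), Il12b (6.83), Il27 (5.98), then Il10 (5.40) and Il12a (5.31), which overlapped, and Il6 (3.58), Il23a (0.26) and Lif (-1.03). In WT after LPS the order was Il12b (14.79), Il27 (13.76), Il12a (11.23), then Ebi3 (10.49) and Il6 (10.03), which overlapped, and Osm (7.94), Il10 (6.95), Il23a (1.76) and Lif (-0.33). After LPS Ebi3 thus ranked above Il12a in cKO and below it in WT. In WT at 0 h Ebi3 led at 9.68, and Il12b (8.43), Osm (8.01), Il27 (7.05) and Il12a (6.54) each overlapped the next, ahead of Il10 (5.34), Il6 (4.27), Il23a (0.41) and Lif (-1.0).

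The balance of subunit transcripts shifted with LPS in both genotypes. The per-length level of Il12b minus that of Il12a was 2.90 and 3.67 in cKO after LPS and 1.40 and 1.65 in cKO at 0 h, against 3.39 and 3.72 in WT after LPS and 1.91 and 1.87 in WT at 0 h. The p40 transcript exceeded the p35 transcript in all 8 samples, and by more after LPS. The per-length level of Il27 minus that of Ebi3 was 2.38 and 2.0 in cKO after LPS and -3.48 and -3.49 in cKO at 0 h, against 2.93 and 3.61 in WT after LPS and -2.04 and -3.21 in WT at 0 h. Ebi3 was the more abundant transcript in all 4 samples at 0 h and Il27 in all 4 after LPS. The Il27 excess after LPS was lower in both cKO samples than in both WT samples, but this difference was not tested. The genotype difference of Il27 itself after LPS, -1.06, did not pass (limma adjusted p = 0.231), and that of Ebi3 was 0.02. These are transcript levels and say nothing of chains secreted.

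Each tested cytokine gene was also matched to the 2 tested genes with the smallest root mean square difference over the 8 samples after each gene was centred on its own mean. Il6 was closest to Tgtp1, an interferon-induced GTPase gene (0.30 log2 units), and Cd69, an early activation receptor (0.33), and Il12a to Edn1, the endothelin 1 gene (0.31), and Cd69 (0.40). Il27 was closest to the chemokine gene Cxcl10 (0.32) and the costimulatory receptor gene Cd40 (0.46), and Il12b to Gbp5, a guanylate-binding protein gene (0.68), and Hdc, which makes histamine (0.69). Il10 was closest to the glutathione transferase gene Gstt1 (0.22) and Glrx (0.23), Ebi3 to Rab5c and Irf2 (0.14 each), and Osm to Serp1 (0.12) and the cathepsin gene Ctsh (0.14). Small values are easier to reach for genes that vary little, as Ebi3 and Osm did.

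Of 16 receptor chains for these families 10 passed the filter. LPS raised 4 and lowered 1 in cKO (19.6% and 17.5% of tested genes), and it raised 4 and lowered 1 in WT (22.5% and 19.7%). Il6ra, the IL-6 binding chain, had an rlog of 7.59 and 7.95 in cKO after LPS and 9.82 and 9.91 in cKO at 0 h, against 7.37 and 7.18 in WT after LPS and 9.71 and 9.59 in WT at 0 h. It fell while its ligand gene rose, by 2.1 in cKO (limma adjusted p = 4.19e-05) and by 2.37 in WT (limma adjusted p = 1.79e-05). Il12rb1, the chain that binds p40, rose by 2.23 in cKO (limma adjusted p = 0.000682) and by 3.68 in WT (limma adjusted p = 4.14e-05), and its interaction of -1.45 did not pass (limma adjusted p = 0.682). Il23r rose by 2.76 in cKO (limma adjusted p = 0.00128) and by 3.26 in WT (limma adjusted p = 0.00041). No receptor chain was called between genotypes by limma after LPS or at 0 h, and 2 after LPS and 1 at 0 h had an unadjusted p under 0.05 (21.5% and 10.9% of tested genes). Among 10 further ligands of the families 1 passed the filter, Clcf1, an IL-6 family ligand, which rose by 1.53 in cKO (limma adjusted p = 0.00287) and by 2.05 in WT (limma adjusted p = 0.000499).

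**Figure D4:**
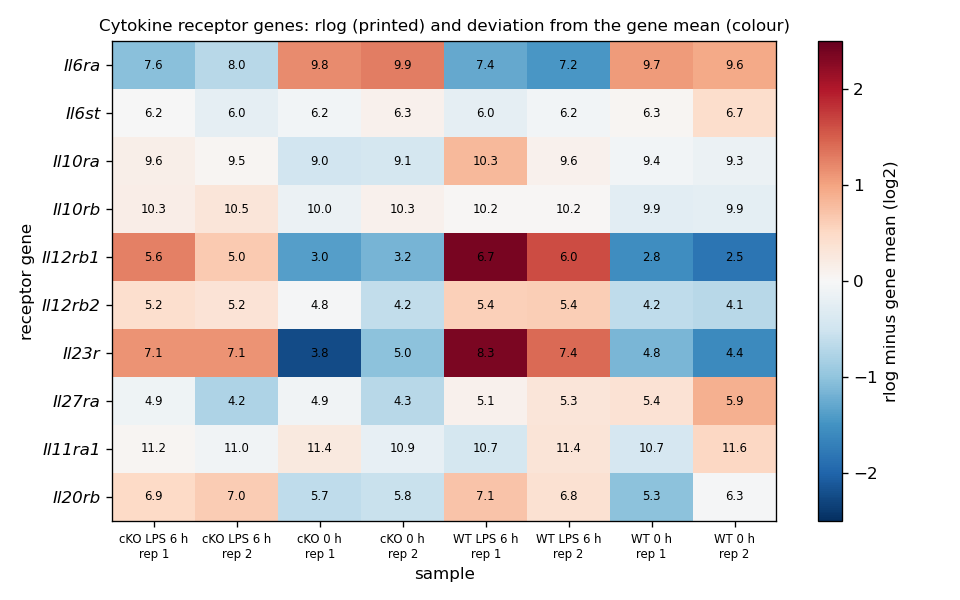
The 10 tested receptor chains in the 8 samples; printed numbers are rlog (log2) values and colour is the deviation from the gene's mean. Il6ra is lower after LPS in both genotypes (7.59 and 7.95 in cKO, 7.37 and 7.18 in WT), while Il12rb1 and Il23r are higher.

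Of 16 JAK-STAT signalling genes 12 rose with LPS in each genotype (19.6% of tested genes in cKO and 22.5% in WT), among them Jak2 (2.24 in cKO and 2.38 in WT), Socs1 (2.80 and 2.29) and Socs3 (2.41 and 2.06), Socs1 and Socs3 being feedback inhibitors of cytokine receptors. With no filter Socs3 did not pass in WT (limma adjusted p = 0.0533). Between genotypes after LPS limma called 1 higher and 1 lower (1.51% and 2.46% of tested genes). Socs1 had an rlog of 9.68 and 9.47 in cKO after LPS and 8.35 and 8.55 in WT after LPS, a difference of 1.13 (SE 0.21, limma adjusted p = 0.0275, range 0.0138 to 0.167), and Jak1 differed by -0.54 (SE 0.12, limma adjusted p = 0.0487, range 0.0424 to 0.248). The Socs1 call was lost without any 1 of the 4 LPS libraries (difference 1.02 to 1.23) and with no filter (limma adjusted p = 0.115). The Jak1 call held under 3 of 16 alternatives and was lost without any 1 of the 8 libraries (difference -0.63 to -0.46). Without either cKO LPS library or WT LPS replicate 1 nearly all calls of any gene were lost. Those losses are thus not particular to Socs1 or Jak1. Of 24 transcription factors that act on Il6, Il10 or Il12b, 10 rose and 1 fell with LPS in cKO (19.6% and 17.5% of tested genes), and 11 rose and 3 fell in WT (22.5% and 19.7%), led by Irf1 (3.08 in cKO and 3.25 in WT), Batf (1.69 and 1.95) and the NF-kB subunit gene Nfkb1 (1.52 and 1.76). Between genotypes limma called 0 of the 24 after LPS, where 12 had an unadjusted p under 0.05 (21.5% of tested genes), and 1 at 0 h (0.199% were called lower), the AP-1 subunit gene Jun (-2.22, SE 0.31, limma adjusted p = 0.0389, range 0.00881 to 0.202). The Jun call held under 7 of 16 alternatives. It was lost without cKO LPS replicate 1 or 2 (0.114 each), cKO 0 h replicate 2 (0.192) or WT 0 h replicate 1 (0.202), by limma adjusted p. It was also lost with no filter (0.166), a minimum rlog of 5 (0.052), no variance trend (0.0724), a robust variance model (0.0661) and the compared groups alone (0.123).

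Genes that respond to IL-10 through STAT3 were read beside Il10 itself. Of 14 listed 13 were tested, and LPS raised 5 and lowered 1 in each genotype (19.6% and 17.5% of tested genes in cKO, 22.5% and 19.7% in WT). Il1rn, the IL-1 receptor antagonist gene, rose by 4.15 in cKO (limma adjusted p = 7.31e-06) and 4.36 in WT (limma adjusted p = 5.83e-06), and the chemokine receptor gene Ccr1 fell by 1.75 in cKO (limma adjusted p = 0.0029) and by 1.31 in WT (limma adjusted p = 0.00999). Without WT 0 h replicate 1 the WT change of Ccr1 did not pass (-1.17, limma adjusted p = 0.063), nor did it with no filter (0.068), and without WT LPS replicate 2 it was -0.80 (0.0359). After LPS 2 of the 13 were called lower in cKO (2.46% of tested genes were), Dusp1, a phosphatase that inactivates MAP kinases (-1.51, SE 0.23, limma adjusted p = 0.0178), and Il1rn (-0.90, SE 0.18, limma adjusted p = 0.0339). Both calls were lost without cKO LPS replicate 1 (differences of -1.55 and -0.93), cKO LPS replicate 2 (-1.47 and -0.87) or WT LPS replicate 1 (-1.3 and -0.68). Nearly all calls of any gene were lost in those fits, so these losses are not particular to Dusp1 or Il1rn. Both calls were also lost with no filter (limma adjusted p = 0.0919 and 0.132) and under quantile normalization (0.0545 and 0.114), and Il1rn with no variance trend (0.0549). At 0 h Dusp1 was the 1 call, also lower in cKO, as 0.199% of tested genes were (-1.71, SE 0.23, limma adjusted p = 0.0347), and it was lost without cKO LPS replicate 1 or 2 (0.113 each), cKO 0 h replicate 2 (0.192) or WT 0 h replicate 1 (0.189), with no filter (0.12), under quantile normalization (0.0562), with no variance trend (0.0721) and in the compared groups alone (0.137), by limma adjusted p.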

How the data were processed

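The authors deposited 1 table of 55226 genes with rlog values, log2 expression after a regularised log transformation that pulls low genes toward their mean, for 8 samples. Per the file headers, further columns give log2 fold changes with raw and adjusted p-values, deposited by the authors for 4 comparisons. CASAVA, DESeq2, featureCounts, HISAT2 2.1.0 and GRCm38 are named, with no roles, per the submitters' processing notes. Annotation and strand setting: not given in the sources used here. Depth is unknown, so no counting interval was possible.

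Samples were grouped by title into 4 groups of 2. The 11543 genes whose mean rlog reached 3 were fitted with limma 3.58.1 in R 4.3.3 as 4 group means over all 8 samples, with a variance trend. The fit had 4 residual degrees of freedom and 4.4 borrowed across genes. Benjamini-Hochberg adjustment covered all tested genes, with a threshold of 0.05. SE and 95% intervals come from this fit. The average over both times was added after seeing the data. Differences on the rlog scale understate those of low genes. Positions and exon lengths came from GENCODE M21, and promoters from RefSeq on GRCm38.p6.

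The cytokine genes and pathway lists were chosen with earlier results of these data known. Of each list up to 3 genes were named per comparison, those with the largest difference past the threshold and groups that did not overlap. Alternatives were no filter, a minimum of 5, quantile normalization, median centring, no variance trend, a robust variance model, a replicate block, a fit of the compared groups alone, and leaving out each sample.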

Additional observations from a re-analysis of the deposited data

How the results depend on the processing

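Il12a, Il12b, Il27 and Il6 rose with LPS in both genotypes under all 16 alternatives. Over the named genes, 1070 of 1224 alternative values kept their direction and their side of the threshold, 109 lost a call, 17 gained one and 28 turned in sign. After LPS, 0 cytokine genes were called lower in cKO with no filter, with quantile normalization or with no variance trend, and 4 in a fit of the compared groups alone (Il6, Il12a, Il12b and Il27). Over all genes these gave 208, 235 and 301 calls with no filter, quantile normalization and no variance trend, against 458. Of those calls 51.1% were lower under quantile normalization and 73.1% with no filter, against 62.0%. At 0 h, all-gene calls were 114 with no filter, 9 with no variance trend and 0 in the compared groups alone, against 29. With no filter the interaction gave 10 calls, and the average over both times gave 0 cytokine genes and 359 genes in all. With the replicate number as a block, 4 cytokine genes were called after LPS (Il6, Il12a, Il12b and Osm) and 804 genes in all, with 72 at 0 h; same-numbered samples deviated together at r = -0.042 to 0.311, so the block is given as a setting and not as a pairing. The cause of these shifts was not tested.

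Leaving out 1 sample gave 0 to 3 called cytokine genes after LPS (0 to 582 genes in all), 0 to 1 at 0 h (2 to 128), 4 to 6 for LPS in cKO (2684 to 4468), 4 to 6 for LPS in WT (3661 to 4770), 0 in the interaction and 0 to 5 in the average (109 to 775). Uncalled differences that turned in sign were Ebi3 after LPS (-0.22 to 0.26), Il10 at 0 h (-0.40 to 0.52), Ebi3 at 0 h (-0.52 to 0.10), Osm with LPS in WT (-0.40 to 0.27), Ebi3 in the average (-0.25 to 0.06) and, in the interaction, Il12a (-0.70 to 0.20), Il12b (-0.73 to 0.43), Il27 (-0.89 to 0.90) and Ebi3 (-0.08 to 0.54). Quantile normalization turned the interaction of Il12a (0.06) and Il12b (0.30), the Ebi3 average (0.02) and the LPS change of Paxip1 in cKO (-0.24), and median centring that of Il27 (0.00). With 2 samples a group and unknown depth, low genes such as Il23a and Lif are the least certain.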

Other observations

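The genes below were chosen after their values were seen. Il19, an IL-10 family cytokine gene under the filter, had an rlog of 0.81 and 0.57 in cKO after LPS and 0.35 and 0.36 in cKO at 0 h, against 2.05 and 1.80 in WT after LPS and 0.35 and 0.33 in WT at 0 h. After LPS both cKO libraries lay below both WT libraries. No test of Il19 is given, and how often genes under the filter separate in this way was not counted. Spi1, the gene of the myeloid factor PU.1, ran the other way, with 10.80 and 12.50 in cKO after LPS and 9.17 and 11.94 in cKO at 0 h, against 9.09 and 9.09 in WT after LPS and 8.17 and 8.55 in WT at 0 h. All 4 cKO libraries exceeded all 4 WT libraries, narrowly at 9.17 against 9.09, and cKO replicate 2 was the higher at both times. How often tested genes separate in this way was not counted. The Spi1 difference did not pass after LPS (2.57, SE 0.8, limma adjusted p = 0.109) or at 0 h (2.2, SE 0.8, limma adjusted p = 0.382).

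Among the 24 transcription factors, the genotype difference averaged over both times called 3 higher and 5 lower in cKO (2.88% and 4.14% of tested genes). The higher were Spi1 at 2.38 (SE 0.57, limma adjusted p = 0.0434), Hlx at 1.01 (SE 0.24, limma adjusted p = 0.0455) and Cebpd at 0.67 (SE 0.16, limma adjusted p = 0.0459). The lower included the AP-1 genes Jun (-1.74, SE 0.22, limma adjusted p = 0.0069) and Fos (-1.75, SE 0.31, limma adjusted p = 0.0176), the NF-kB subunit gene Rel (-0.68, SE 0.14, limma adjusted p = 0.0287) and Nfkbiz (-0.60, SE 0.14, limma adjusted p = 0.0376), which encodes a nuclear IkB protein. Crem was lower too (-0.9, SE 0.21, limma adjusted p = 0.0386). Jun passed under all 15 alternatives (limma adjusted p = 0.0014 to 0.0487). Fos, Rel, Nfkbiz and Spi1 did not: the limma adjusted p ran up to 0.113 for Fos, 0.133 for Rel, 0.155 for Nfkbiz and 0.214 for Spi1. Ranges for Hlx, Cebpd and Crem are not given here.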
